A study of Mus musculus with 39 samples.

Results

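Cadherins and protocadherins were taken as all protein-coding mouse genes whose symbol starts with Cdh followed by a digit, or with Pcdh. The rule found 92 of 21938 protein-coding genes in the GENCODE annotation of GRCm38 (mm10). Each consensus peak of NOTCH and RBPJ binding was given to the gene with the nearest protein-coding start site, and 190 of the 20809 consensus peaks on nuclear chromosomes fell to these genes. The genes were sorted by structural class into 18 classical cadherins (5 of type I and 13 of type II), 9 delta protocadherins (4 delta-1 and 5 delta-2), 57 clustered protocadherins, 5 further Cdh genes and 3 further Pcdh genes. Neither the selection nor the classes used a measured value, though both were chosen with earlier results of these data known.

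Binding was mapped by Targeted DamID (TaDa), in which a bacterial adenine methylase (Dam), joined to the protein under study, marks GATC sites near the places that the fusion reaches. Plasmids were electroporated into the cortex of wild-type MF1 mouse embryos at E13.5 and tissue was taken 24 h later, at E14.5, with the Hes5 promoter driving expression in radial glial cells (RGCs) and the Tα1 (Tuba1a) promoter in intermediate progenitor cells (IPCs). All fusions were expressed ectopically: human RBPJ1 in 3 samples of each cell type, mouse NICD in 4 samples of IPCs, and NICD or NdECD (Notch without its extracellular domain) in 2 samples each of RGCs, with Dam-only in 5 samples of RGCs and 4 of IPCs as controls. The authors pooled the samples into 4 peak lists, named here RGC RBPJ, RGC Notch, IPC RBPJ and IPC Notch, and merged these into consensus peaks that carry a k-means cluster number from 1 to 8. Within a cell type the RBPJ and Notch lists were called against common Dam-only samples, so their peaks are not independent of each other. Because the files hold positions only, with no height, depth or value of a single sample, the spread between embryos cannot be read and no difference was tested. The identity of the cells could not be checked against marker genes for the same reason. Shares below carry 95% Wilson intervals and rates carry exact Poisson intervals at the same level. Both describe counting error over peaks, and peaks of a single gene share a region.

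Cadherins are calcium-dependent adhesion molecules that bind cadherins on neighbouring cells. Classical cadherins act through catenins on the actin cytoskeleton. In the embryonic cortex, N-cadherin (Cdh2) holds the adherens junctions that join radial glia at the ventricular surface, whereas type II cadherins and delta protocadherins are known for patterned expression in brain regions and neuronal subtypes. Clustered protocadherins lie in tandem alpha, beta and gamma arrays, and those of the alpha and gamma arrays are made from alternative first exons. Combinations of clustered protocadherins on single neurons serve in self-recognition. RBPJ, the DNA-binding partner of NICD, recognises a core that holds the letters TTCCCA.

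The sequence under 5 peaks, nearest to Pcdh8, Pcdh10, Pcdh17, Cdh6 and Pcdh18, is shown because these peaks were called in 3 lists. Pcdh8 and Pcdh17 each had a further peak in 3 lists, and the peak with more TTCCCA words was taken. The peaks taken held 10 and 4 words, and those left out 5 and 0. Each line gives 200 bases of the plus strand of GRCm38, read 5′ to 3′, chosen as the window of the peak with the most TTCCCA words on either strand. The words are in capitals, as TTCCCA on the plus strand and TGGGAA where the word lies on the minus strand.
Pcdh8 (chr14:79851870-79852069): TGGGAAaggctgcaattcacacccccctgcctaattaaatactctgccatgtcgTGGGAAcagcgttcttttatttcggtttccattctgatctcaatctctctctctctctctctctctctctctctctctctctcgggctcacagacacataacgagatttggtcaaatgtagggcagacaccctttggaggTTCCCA
Pcdh10 (chr3:45384852-45385051): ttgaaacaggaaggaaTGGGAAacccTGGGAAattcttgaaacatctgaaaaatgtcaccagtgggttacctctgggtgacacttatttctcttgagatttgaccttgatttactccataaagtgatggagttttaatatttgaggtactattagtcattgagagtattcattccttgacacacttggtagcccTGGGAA
Pcdh17 (chr14:84532459-84532658): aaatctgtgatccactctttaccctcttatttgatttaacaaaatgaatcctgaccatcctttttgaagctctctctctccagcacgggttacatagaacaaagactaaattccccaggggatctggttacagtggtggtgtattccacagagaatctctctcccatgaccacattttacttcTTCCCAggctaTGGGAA
Cdh6 (chr15:13068168-13068367): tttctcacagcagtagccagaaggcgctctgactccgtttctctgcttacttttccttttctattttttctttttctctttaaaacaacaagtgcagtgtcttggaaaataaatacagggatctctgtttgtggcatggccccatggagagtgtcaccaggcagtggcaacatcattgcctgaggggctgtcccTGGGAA
Pcdh18 (chr3:49567287-49567486): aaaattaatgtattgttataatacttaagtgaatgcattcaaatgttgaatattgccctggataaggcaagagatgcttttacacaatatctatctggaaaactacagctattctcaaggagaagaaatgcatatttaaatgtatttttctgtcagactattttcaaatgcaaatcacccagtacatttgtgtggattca

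Since these windows were chosen for their words, their number is not comparable with that of a window placed blindly. Of all consensus peaks, 20.9% held at least 1 TTCCCA word in the central 200 bases. The Pcdh8 and Pcdh10 windows held 3 words each, the Pcdh17 window 2 and the Cdh6 window 1, and the whole Pcdh18 peak held none. The 200 bases extracted in the same way from a Pcdh9 peak in 3 lists held 1 word.

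Of the 92 genes, 34 had at least 1 consensus peak, 37.0% (27.8 to 47.2), beside 38.7% of all protein-coding genes. At least 5 peaks lay nearest to 15 of them, beside 4.7% of all protein-coding genes. The genes with peaks were unevenly spread over the classes. All 13 type II cadherins and all 9 delta protocadherins had a peak, as did 2 of 5 type I cadherins, 4 of 5 further Cdh genes, 2 of 3 further Pcdh genes and 4 of 57 clustered protocadherins. These counts moved with the sequence each gene covers. Per Mb of nearest sequence, clustered genes had 6.80 peaks (2.49 to 14.8), an interval that held the 7.86 of all genes. That rate joined 32.7 (12.0 to 71.2) for the gamma array with 0 for the alpha and beta arrays. Type II cadherins had 3.07 (2.39 to 3.88) peaks per Mb and delta protocadherins 2.72 (2.02 to 3.57). No peak lay nearest to Cdh1 (E-cadherin), Cdh3 (P-cadherin), Cdh15 (M-cadherin of muscle), Cdh16 (a kidney cadherin) or Pcdh12 (an endothelial protocadherin), nor to 53 clustered genes. The consensus peaks numbered 105 for classical cadherins, 51 for delta protocadherins, 19 for further Cdh genes, 9 for further Pcdh genes and 6 for clustered genes.

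**Figure D1:**
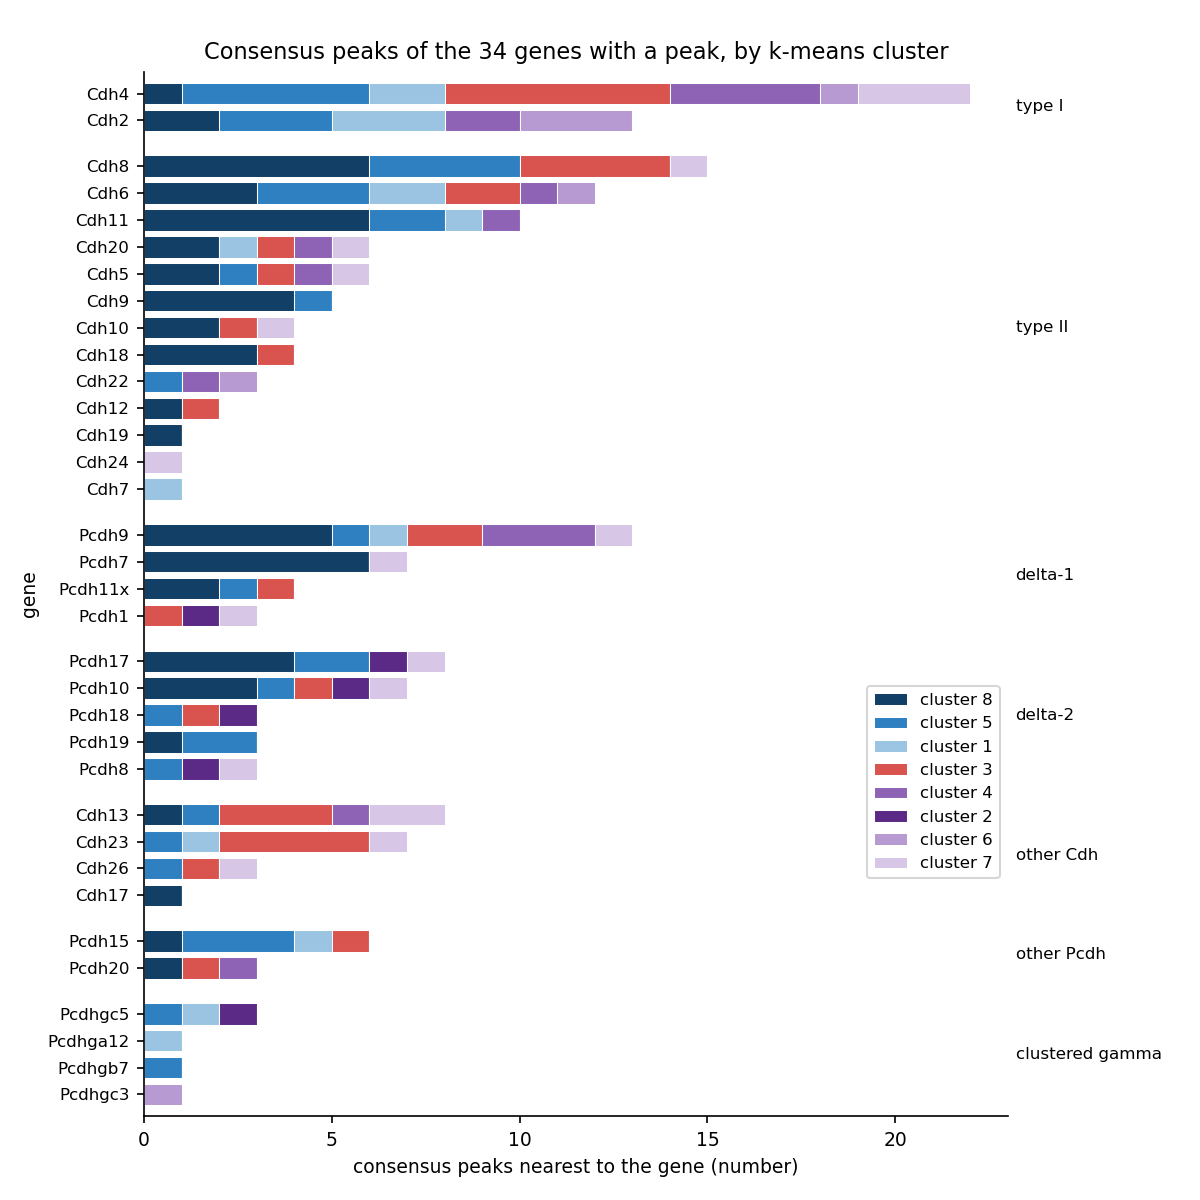
Horizontal bars give the number of consensus peaks nearest to each of the 34 genes with a peak (x axis, number of peaks), coloured by k-means cluster and grouped by class. Cdh4 has 22 peaks over 7 clusters, whereas 6 of the 7 peaks of Pcdh7 and 4 of the 5 of Cdh9 are in cluster 8.

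The RGC RBPJ list covered 136 of the 190 consensus peaks, 71.6% (64.8 to 77.5), beside 67.6% of all consensus peaks. RGC Notch was called in 24, 12.6% (8.64 to 18.1), beside 17.7%, and IPC RBPJ in 52, 27.4% (21.5 to 34.1), beside 26.2%. IPC Notch was called in 13, 6.84% (4.04 to 11.4), beside 10.1%. Each of these 4 intervals held the share over all peaks. A call in a single list only was found for 163 peaks, 85.8% (80.1 to 90), beside 82.9%, and most of these, 110, were RGC RBPJ alone. Calls in 3 lists numbered 8, 4.21% (2.15 to 8.09), beside 3.88% of all peaks in 3 or 4 lists. None of the 190 peaks was called in all 4 lists, which allows a share of up to 1.58%. Here and below, the limit for a count of 0 is 3 counts of the total in place of a Wilson interval.

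At the level of genes, 30 of the 92 had an RGC RBPJ peak, beside 30.9% of all protein-coding genes, and 15 an RGC Notch peak, beside 11.5%. An IPC RBPJ peak lay nearest to 22, beside 16.1%, and an IPC Notch peak to 10, beside 6.92%. As shares these were 32.6% (23.9 to 42.7), 16.3% (10.1 to 25.2), 23.9% (16.4 to 33.6) and 10.9% (6.01 to 18.9) in that order.

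**Figure D2:**
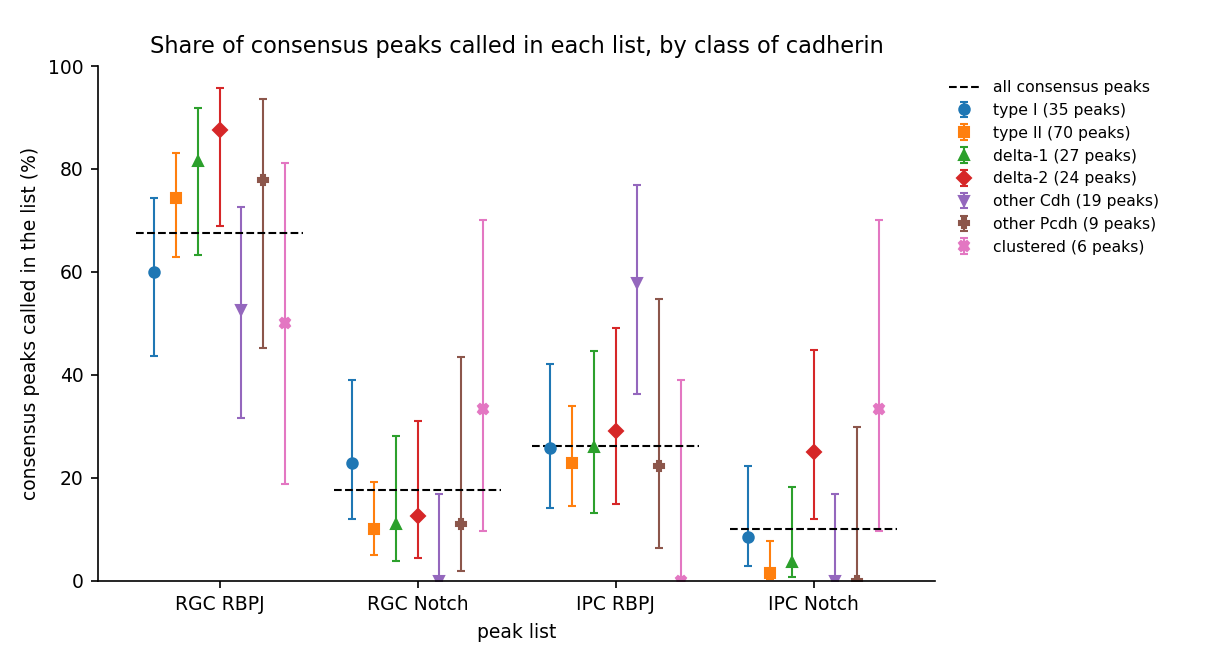
Points give the share of consensus peaks (y axis, percent) called in each of the 4 peak lists (x axis) for each class, with 95% Wilson intervals, and dashed lines give the share over all consensus peaks. The further Cdh genes sit at 57.9% for IPC RBPJ and at 0 for both Notch lists, and delta-2 protocadherins sit at 25.0% for IPC Notch.

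The calls were then read by class. Type II cadherins were called for RBPJ in RGCs at 52 of 70 peaks and for Notch in IPCs at 1 of 70, 1.43% (0.253 to 7.66), beside 10.1% of all consensus peaks. The class shares here were not matched in distance to the start site. Of the 70 type II peaks, 21 lay within 100 kb, beside 16082 of 20809 for all. Over all members, IPC Notch was called at 11.25% of peaks within 100 kb, beside 6.84% at any distance. Delta-2 protocadherins were called for IPC Notch at 6 of 24 peaks, 25.0% (12.0 to 44.9), beside 10.1%. The same 6 peaks were those called in 3 lists, beside 3.88% of all peaks in 3 or 4 lists. They were 2 each at Pcdh8 and Pcdh17 and 1 each at Pcdh10 and Pcdh18. The delta-2 share of IPC Notch was not computed with genes left out. Delta-1 protocadherins had IPC Notch at 1 of 27 peaks and 3 lists at 1 of 27. Thus 7 of the 8 peaks in 3 lists belonged to delta protocadherins, 13.7% (6.81 to 25.7) of their 51 peaks, and this share lay between 10.4 and 15.9% when each of the 9 genes was left out in turn. Type I cadherins had RGC Notch at 8 of 35 peaks, 22.9% (12.1 to 39.0), an interval that held the 17.7% of all peaks. The further Cdh genes had IPC RBPJ at 11 of 19 peaks, 57.9% (36.3 to 76.9), beside 26.2%, though 42.9% (21.4 to 67.4) among the 14 of them that held a GATC site. They had neither Notch list at any of the 19, which allows a share of up to 15.8%.

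The clusters were read through the list calls over all consensus peaks. In cluster 8, 99.4% of peaks carried an RGC RBPJ call and 0.866% an RGC Notch call, and cluster 5 was nearly as pure, with RGC RBPJ at 97.6%. Cluster 3 carried IPC RBPJ at 96.7% and cluster 1 RGC Notch at 70.8%. Clusters 2, 4, 6 and 7 mixed the calls of several lists and were also counted together.

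Of the 190 peaks, 58 were in cluster 8, 30.5% (24.4 to 37.4), beside 14.4% of all consensus peaks. The share stayed between 28.4 and 33.9% when each of the 34 genes was left out in turn. Cluster 6 held 7, 3.68% (1.80 to 7.41), beside 10.8%, and this share was 2.3% without Cdh2, which had 3 of the 7. Clusters 2, 4, 6 and 7 together held 47, 24.7% (19.1 to 31.3), beside 36.3%. The other clusters lay nearer to the background. There were 15 peaks in cluster 1 (7.89%, beside 10.5%), 6 in cluster 2 (3.16%, beside 4.76%), 33 in cluster 3 (17.4%, beside 16.3%), 16 in cluster 4 (8.42%, beside 9.79%), 37 in cluster 5 (19.5%, beside 22.5%) and 18 in cluster 7 (9.47%, beside 11%).

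Most cluster 8 peaks belonged to type II cadherins and delta protocadherins. It held 30 of 70 type II peaks, 42.9% (31.9 to 54.5), and 21 of 51 delta peaks, 41.2% (28.8 to 54.8), and 3 of 35 type I peaks, 8.57% (2.96 to 22.4), an interval that held the 14.4% of all peaks. Leaving out each type II gene in turn gave 40.0 to 46.6%. In cluster 2 were 5 of 51 delta peaks and 0 of 105 classical peaks, which allows a share of up to 2.86%. Cluster 6 held 6 of 105 classical and 0 of 51 delta peaks, and the latter allows a share of up to 5.88%. Cluster 3 held 8 of the 19 peaks of the further Cdh genes, 42.1% (23.1 to 63.7), beside 16.3% of all peaks. Of the 14 with a GATC it held 3, 21.4% (7.57 to 47.6). The 16.3% also counts peaks without a GATC, which made up 51.3% of all cluster 3 peaks, so it is no match for the 14.

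Most non-clustered members lie in wide stretches without other protein-coding start sites, whereas clustered members lie close together, and the clusters moved with distance. The median sequence nearest to a gene was 1758 kb for classical cadherins, 1990 kb for delta protocadherins and 7.45 kb for clustered genes, beside 44.8 kb for all genes. The sequence nearest to all 92 genes covered 53.2 Mb, of which 82.2% lay beyond 100 kb of a start site, beside 36.8% for all genes. The median distance of a peak to the start site was 160 kb, beside 21.1 kb over all consensus peaks, and 79 peaks, 41.6% (34.8 to 48.7), lay beyond 300 kb, beside 7.59%. The number of peaks per Mb of nearest sequence was 3.57 (3.08 to 4.12), beside 7.86 for all genes. Within 100 kb of a start site the rate was 8.43 (6.68 to 10.5) per Mb, beside 9.61 for all genes, and beyond 100 kb it was 2.52 (2.07 to 3.03), beside 4.85. The interval within 100 kb held the rate of all genes, and that beyond 100 kb did not. Peaks beyond 100 kb lay at a median of 607 kb for these genes and 220 kb for all genes, so that comparison was not matched in distance.

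**Figure D3:**
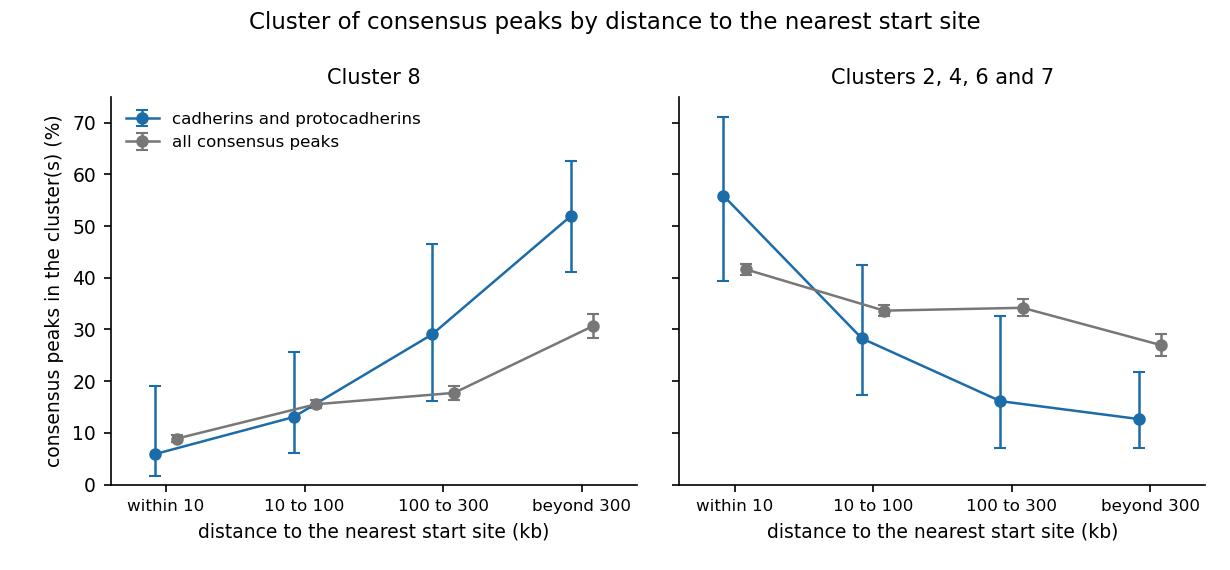
Points give the share of consensus peaks (y axis, percent) in cluster 8 (left) and in clusters 2, 4, 6 and 7 (right) by distance to the nearest start site (x axis, kb), with 95% Wilson intervals, for cadherins and protocadherins and for all consensus peaks. Beyond 300 kb cluster 8 holds 51.9% of the cadherin peaks and 30.6% of all peaks, whereas within 10 kb it holds 5.88 and 8.90%.

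The share of cluster 8 was higher at greater distance, both for these genes and for all genes. Within 10 kb of the start site it held 2 of 34 peaks, 5.88% (1.63 to 19.1), beside 8.90% of all consensus peaks at that distance. Between 10 and 100 kb it held 6 of 46, 13.0% (6.12 to 25.7), beside 15.5%. Between 100 and 300 kb it held 9 of 31, 29.0% (16.1 to 46.6), beside 17.7%, and beyond 300 kb 41 of 79, 51.9% (41.1 to 62.6), beside 30.6%. Up to 300 kb all 3 intervals held the share of all peaks, and beyond 300 kb the interval did not. Beyond 300 kb the median distance was 814 kb for these genes and 450 kb for all peaks, so that bin was not matched in distance. Clusters 2, 4, 6 and 7 went the other way, with 19 of 34 peaks within 10 kb, 55.9% (39.5 to 71.1), beside 41.6%, and 10 of 79 beyond 300 kb, 12.7% (7.02 to 21.8), beside 27.0%.

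Base composition moved with distance too, and its part in these shares was not tested. The median GC content was 40.8% over the 190 peaks, beside 45.3% over all consensus peaks. It was 38.2% in the peaks beyond 300 kb, beside 40.0% for all peaks at that distance, and 52.2% within 10 kb, beside 48.4%. The 58 cluster 8 peaks had a median of 37.0%, beside 41.3% for all of cluster 8.

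TTCCCA words occurred at 1.09 (0.990 to 1.19) per kb of peak sequence, counted on both strands, beside 1.17 (1.16 to 1.18) over all consensus peaks. Among the classes the rate was 1.29 (1.09 to 1.51) for type I cadherins, 1.03 (0.861 to 1.22) for type II, 0.923 (0.70 to 1.2) for delta-2 and 0.588 (0.384 to 0.862) for delta-1. It was 1.37 (1.01 to 1.80) for the further Cdh genes, 1.29 (0.825 to 1.92) for clustered genes and 1.25 (0.731 to 2.01) for the further Pcdh genes. Delta protocadherins together had 0.782 (0.622 to 0.971) per kb, and 0.694 to 0.842 when each gene was left out. The cluster 8 peaks of these genes held 0.742 (0.583 to 0.932) words per kb, beside 1.07 (1.05 to 1.10) for all of cluster 8. That comparison was not matched, with a median distance of 653 kb beside 43.2 kb. For these genes the rate was 1.24 (1.10 to 1.40) within 100 kb and 0.922 (0.794 to 1.07) beyond. For all peaks it was 1.18 and 1.12. The part of distance and base composition in the word rates was not tested. TAATTA, the core word of many homeodomain proteins, occurred at 0.416 (0.357 to 0.483) per kb, beside 0.358.

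Among type I cadherins, the peaks belonged to Cdh4 and Cdh2. Cdh4 (R-cadherin, a classical cadherin of the developing nervous system) had 22 consensus peaks, the most of all 92 genes, at 23 per Mb of nearest sequence. They were called in RGC RBPJ at 13, RGC Notch at 3, IPC RBPJ at 9 and IPC Notch at 1. Of the 22, 13 lay within the gene, on chromosome 2 from 179442431 to 179899373, and 9 in intergenic sequence up to 472 kb away. The widest, from 179520975 to 179533418, was 12444 bp long, lay in an intron and was called for RBPJ in both cell types. It held 22 TTCCCA words.

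Near the start site of Cdh4, a cluster 4 peak from 179441518 to 179444746 was called for RBPJ and Notch in RGCs. A further intron peak, from 179534590 to 179538498, was called for RGC RBPJ and IPC Notch and was in cluster 6. In cluster 3 were 6 Cdh4 peaks, of which 5 were called in IPC RBPJ alone. Without Cdh4 the classical cadherins kept 83 of their 105 peaks.

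**Figure D4:**
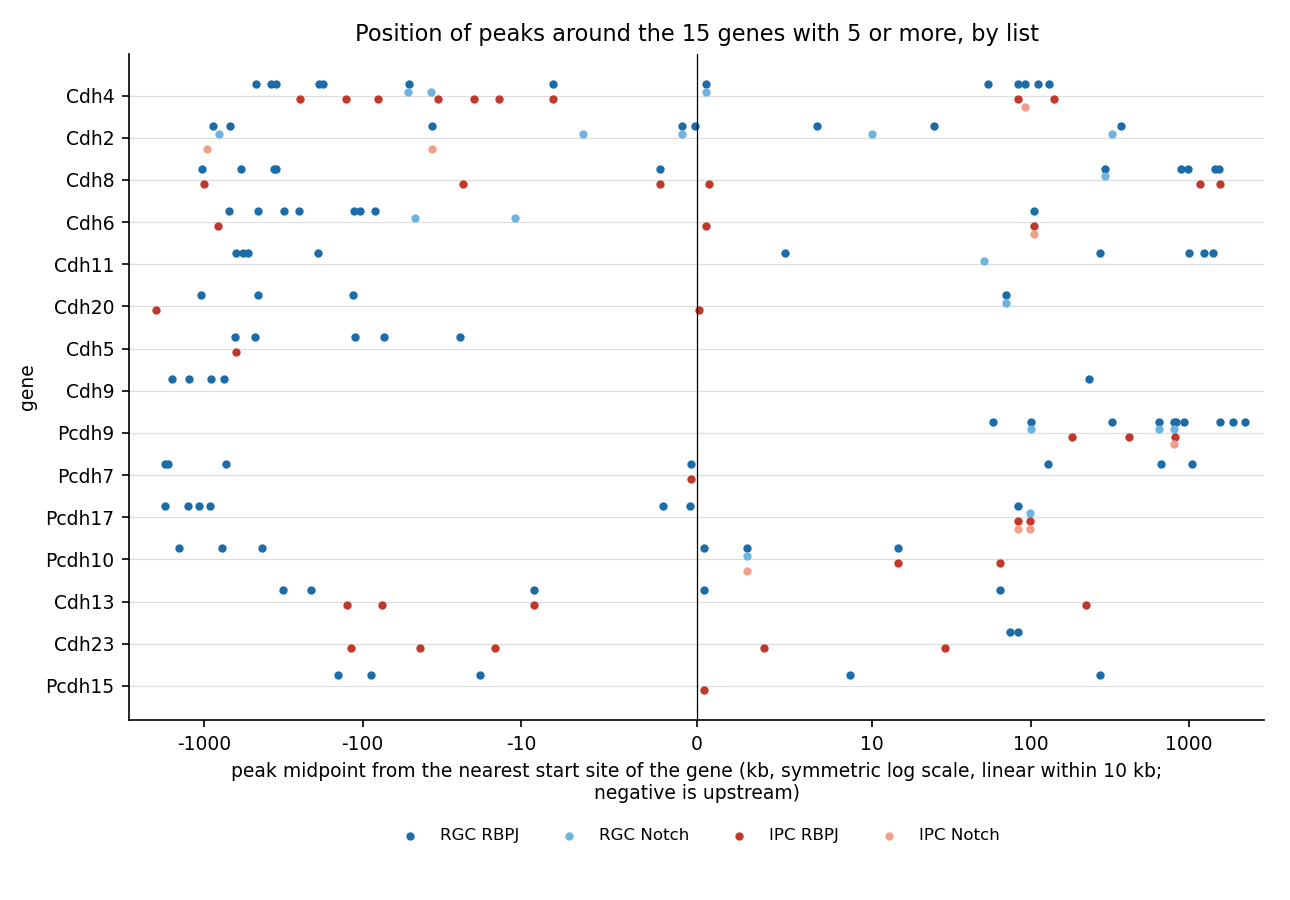
Each dot is a peak midpoint by its distance from the nearest start site of its gene (x axis, kb, symmetric log scale, negative is upstream) for the 15 genes with 5 or more consensus peaks, coloured by list. A peak called in several lists has a dot in each colour, and Cdh4 has 22 peaks within 472 kb whereas those of Pcdh9 reach 2283 kb.

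Cdh2 (N-cadherin) had 13 consensus peaks, called in RGC RBPJ at 8, RGC Notch at 5, IPC Notch at 2 and IPC RBPJ at 0. It was the gene with the most RGC Notch peaks among the 92. Start sites of Cdh2 carried 2 peaks. On chromosome 18, that from 16807762 to 16810920 was RGC RBPJ alone and in cluster 6. The other, from 16668672 to 16673100, was called for RBPJ and Notch in RGCs and was in cluster 4. There, only the RGC RBPJ peak reached the start site, and the RGC Notch peak began 1.44 kb from it. That start site, at 16670069, was an internal one of a gene that begins at 16809246 on the minus strand. A peak of 7968 bp in an intron, from 16702597 to 16710564, was called for RGC RBPJ and IPC Notch and was in cluster 6. The third cluster 6 peak lay 958 kb from the start site and was called in IPC Notch alone.

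Type II cadherins had fewer peaks for their sequence, 3.07 per Mb beside 10.6 for type I. The type I rate leaned on Cdh4, which had 22 of the 35 type I peaks. Cdh2 had 5.93 peaks per Mb, and Cdh1, Cdh3 and Cdh15 had none. The type I rate was not computed without Cdh4. Of the type II genes, Cdh8 had 15 peaks (RGC RBPJ 10, RGC Notch 1, IPC RBPJ 6 and IPC Notch 0) and Cdh6 had 12 (8, 2, 3 and 1 in the same order). Cdh11 had 10, of which 9 were RGC RBPJ and 1 RGC Notch, with none in IPCs. Cdh20 and Cdh5 (VE-cadherin of endothelium) had 6 each, and all 5 peaks of Cdh9 were RGC RBPJ alone, with the nearest 233 kb from the start site. In this class 38 of 70 peaks, 54.3% (42.7 to 65.4), lay beyond 300 kb and 56 were intergenic. The peak with the most calls was that of Cdh6, on chromosome 15 from 13066789 to 13069799, in an intron 104 kb from the start site. It was called for RBPJ in RGCs and for both proteins in IPCs and was in cluster 6.

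Among the 13 type II cadherins, those with a peak on a start site mostly had it called in IPCs. Of the 6 peaks on a start site, 5 were called for IPC RBPJ alone, those of Cdh6, Cdh8, Cdh12, Cdh20 and Cdh24, and the sixth, at Cdh22, was called for RBPJ and Notch in RGCs. IPC RBPJ alone made up 83.3% (43.6 to 97.0) of these 6 peaks, beside 12.8% of all consensus peaks on a start site and 14 of the 70 type II peaks. Each of the 5 peaks held a GATC, and they were in clusters 3 (Cdh6 and Cdh12) and 7 (Cdh8, Cdh20 and Cdh24). Over all consensus peaks, 73.7% of cluster 7 carried an RGC RBPJ call. A further Cdh8 peak, 1.64 kb from the start site, was called for RBPJ in both cell types. The Cdh12 start site, at 21110125, was an internal one of a gene that begins at 20449265. The Cdh24 peak was equally near to the start site of Gm17606, so its gene is uncertain.

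Over all classes, 17 genes had a peak on a start site, 18 peaks in all, 9.47% of the 190, beside 16.6% of all consensus peaks. Besides those named, they were the peaks of Pcdh10, Pcdh17, Pcdh11x, Cdh13 and Pcdhgb7 and Pcdhgc5 (RGC RBPJ alone), Pcdh15 (IPC RBPJ alone), Pcdh7 (RBPJ in both cell types) and Pcdh8 (RBPJ in both and Notch in IPCs). The Pcdh15 start site, at 73821943, was an internal one of a gene that begins at 73099342. RefSeq promoters of GRCm38, from 250 bases before to 50 after a start, were found for 22 of the 91 symbols. At least 1 TTCCCA word lay in 8 of the 25 promoters of these genes, 32%, beside 25.6% of 32851 promoters in the table. Of the type II start sites called in IPC RBPJ alone, the following promoters held the word, shown on the strand of the gene (minus for both) with the word in capitals.
Cdh24 (chr14:54641315-54641614): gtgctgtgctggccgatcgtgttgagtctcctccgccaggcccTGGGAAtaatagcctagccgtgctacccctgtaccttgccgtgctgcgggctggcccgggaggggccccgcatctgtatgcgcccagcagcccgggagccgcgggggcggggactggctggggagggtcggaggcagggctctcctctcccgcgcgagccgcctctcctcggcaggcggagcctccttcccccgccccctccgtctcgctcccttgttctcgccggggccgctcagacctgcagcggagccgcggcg
Cdh6 (chr15:13173626-13173925): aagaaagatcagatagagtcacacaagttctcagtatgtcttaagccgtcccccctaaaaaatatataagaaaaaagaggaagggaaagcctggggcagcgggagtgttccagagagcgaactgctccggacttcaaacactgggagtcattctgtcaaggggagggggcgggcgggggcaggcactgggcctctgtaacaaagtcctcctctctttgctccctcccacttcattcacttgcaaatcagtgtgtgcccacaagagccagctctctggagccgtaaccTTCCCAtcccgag

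No TTCCCA lay in the tabulated promoters of Cdh8, Cdh12, Cdh20 or Cdh22, which states only that these letters were not in those 300 bases.

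Delta protocadherins had 2.72 peaks per Mb, and 43 of their 51 peaks, 84.3% (72.0 to 91.8), carried an RGC RBPJ call. Pcdh9, a delta-1 member with a gene of 877 kb, had 13 peaks (RGC RBPJ 10, RGC Notch 3, IPC RBPJ 3 and IPC Notch 1), and 9 of them lay within the gene. The 4 beyond its end were all RGC RBPJ alone and in cluster 8. Pcdh7 had 7 peaks, each with an RGC RBPJ call, 6 of them in cluster 8 and the seventh, of 6312 bp, on its start site. Pcdh11x had 4 peaks and Pcdh1 had 3.

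Among delta-2 protocadherins, Pcdh17 and Pcdh10 (both expressed in the developing brain) had 8 and 7 peaks, and Pcdh8, Pcdh18 and Pcdh19 (the gene of an X-linked epilepsy) had 3 each. Pcdh8 had 18.6 peaks per Mb, the others of this type between 1.51 and 2.98. Its peak on the start site, on chromosome 14 from 79770342 to 79775188, and its distal peak from 79849791 to 79856571 were both called in RGC RBPJ, IPC RBPJ and IPC Notch. The third Pcdh8 peak was RGC RBPJ alone. On the start site, only the RGC RBPJ peak reached the start itself, whereas the IPC Notch and IPC RBPJ peaks began 0.740 and 2.49 kb from it.

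The remaining delta peaks in 3 lists lay off start sites. Pcdh17 had a pair, from 84530624 to 84533352 (RGC RBPJ, IPC RBPJ and IPC Notch, cluster 5) and from 84546738 to 84548116 (RGC Notch, IPC RBPJ and IPC Notch, cluster 2), 82.1 and 98.2 kb from the start site. For Pcdh10, Pcdh18 and Pcdh9 the calls were RGC RBPJ, RGC Notch and IPC Notch, without IPC RBPJ. The Pcdh10 peak lay 1.55 kb from the start site, on chromosome 3 from 45384181 to 45386865, and that of Pcdh18 lay 187 kb away, from 49567287 to 49568246. The Pcdh9 peak, from 93081776 to 93085643 on chromosome 14, lay in an intron 800 kb from the start site.

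The further Cdh genes differ from classical cadherins in their membrane anchor or in the length of their extracellular part. Cdh13 (T-cadherin, held by a lipid anchor) had 8 peaks (RGC RBPJ 5 and IPC RBPJ 4) and Cdh23 (a tip-link cadherin of hair cells) had 7 (RGC RBPJ 2 and IPC RBPJ 5), all in introns of Cdh23. Cdh26 had 3 and Cdh17 had 1. The share of IPC RBPJ in this class was 50% without Cdh23 and 63.6% without Cdh13. Pcdh15, the tip-link partner of Cdh23, had 6 peaks, of which 5 were RGC RBPJ and 1 IPC RBPJ, and Pcdh20 had 3.

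IPC RBPJ calls came with a property of the sequence that bears on them. DamID marks GATC sites only, yet 15 of the 190 peaks, 7.89% (4.84 to 12.6), held no GATC, beside 9.76% of all consensus peaks. Of the 15, 14 were in cluster 3 and called in IPC RBPJ alone, which is 42.4% (27.2 to 59.2) of the 33 cluster 3 peaks, beside 51.3% of all cluster 3 peaks. A GATC lay within 500 bp of the edge for 13 of the 15. They belonged to Cdh23 (3), Cdh4, Cdh8, Cdh13 and Cdh18 (2 each), and Cdh20, Pcdh10, Pcdh20 and Pcdh11x (1 each). Among peaks that held a GATC, IPC RBPJ was called at 38 of 175, 21.7% (16.2 to 28.4), beside 19.6% of all such peaks, and for the further Cdh genes it was called at 6 of the 14 peaks left of 19. All 5 peaks that these genes lost were IPC RBPJ peaks of cluster 3. The part of GATC spacing in these calls was not tested.

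Clustered protocadherins lie side by side on chromosome 18 between 36930184 and 37841873, a locus of 912 kb with 57 gene identifiers (Pcdha11 is listed under 2). It held 6 consensus peaks, all of them in the gamma array, and 0 in the alpha array of 257 kb and the beta array of 260 kb. Of the 6, 3 were nearest to Pcdhgc5, from 37815915 to 37821303 (RGC RBPJ, on the start site), 37823796 to 37826460 (RGC RBPJ and IPC Notch, cluster 2) and 37831915 to 37836443 (RGC Notch). The others were at Pcdhgb7 (RGC RBPJ, on the start site), Pcdhga12 (RGC Notch) and Pcdhgc3 (IPC Notch). IPC RBPJ was called at 0 of the 6, which allows a share of up to 50%. Since gamma transcripts share their last exons, which lie downstream of Pcdhgc5, the nearest start site does not tell which isoform a peak there belongs to.

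**Figure D5:**
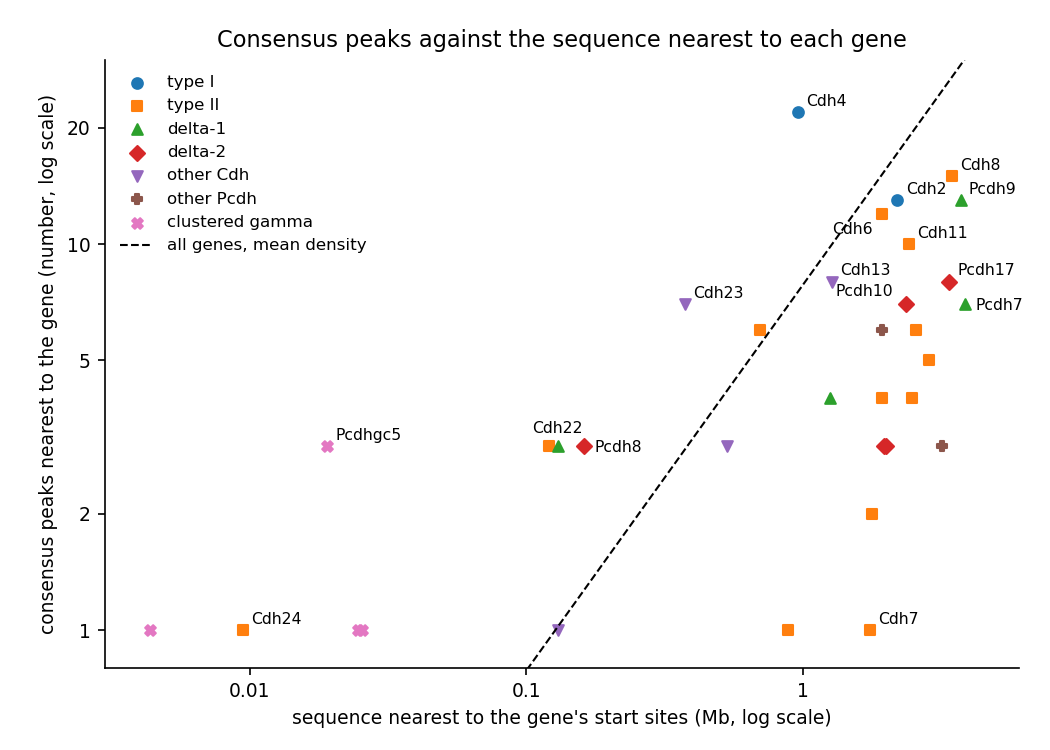
Points give the number of consensus peaks (y axis, log scale) against the Mb of sequence nearest to the start sites (x axis, log scale) for the 34 genes with a peak, marked by class, and the dashed line is the mean density of all genes, 7.86 per Mb. Of the 29 genes with over 0.1 Mb, 6 lie above the line, Cdh4, Cdh5, Cdh22, Cdh23, Pcdh1 and Pcdh8.

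By place, 115 of the 190 peaks were intergenic, 60.5% beside 44.6% of all consensus peaks, 66 lay in an intron of their gene, 7 in an exon and 2 in an intron of another gene. The start site of an annotated gene outside the protein-coding set was nearer for 133 peaks, 70.0% (63.1 to 76.1), beside 46.2% of all consensus peaks, so that most of these peaks are assigned across non-coding genes. Distal peaks of this kind are placed by distance alone, and contact with the gene was not measured.

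Catenins, which link classical cadherins to actin, had peaks at 7 of 9 genes listed, 29 in all, beside 38.7% of all protein-coding genes with a peak. Ctnnd2 (delta-catenin) had 13, Ctnna2 5, and Ctnnb1 (beta-catenin) and Pkp4 3 each. Of 20 other genes of the cadherin superfamily, 11 had peaks, 63 in all, with 16 at Fat4, 13 at Fat3 and 7 each at Fat1 and Celsr1. RGC RBPJ was called at 21 of the 29 catenin peaks and 47 of the 63 superfamily peaks, and IPC RBPJ at 6 and 13, beside 67.6 and 26.2% of all consensus peaks. The catenins had 6.65 and the superfamily genes 9.69 peaks per Mb of nearest sequence, beside 7.86 for all genes and 3.57 for the cadherins and protocadherins.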

How the data were processed

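TaDa libraries of 39 samples were made. The lists used here come from 14 fusion samples, 3 of RBPJ and 4 of Notch in each cell type, called against Dam-only samples. According to the methods, the authors aligned reads to mm10 and used MACS2 (also named in the submitters' processing notes) to call broad peaks for each pair of fusion and Dam-only samples, and kept peaks that passed their false discovery threshold in all pairs. They deposited the 4 resulting lists as positions, and merged overlapping peaks into a file with the k-means cluster and list names of each consensus peak. The score columns hold 1 constant value, so the deposited files contain no height, fold or q-value. There were 0 columns of single samples. Depth per sample was not analysed here, and intervals cover counting error only.

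Positions were read on GRCm38 and are printed counted from 1. Start sites were those of all protein-coding transcripts in GENCODE release M 21, and distance was taken from the nearest edge of a peak. The file held 20811 consensus peaks, and 2 on the mitochondrial genome were left out. List names in the cluster file matched the overlap with the lists, from 1 bp, for all 20809 others. Sequence came from the RefSeq copy of GRCm38, with words counted on both strands. The window of 1 further peak is not reported here. Nearest-gene and word code was tested on simulated data, and interval code was not. Analyses were run in Python 3.11.15 with scipy 1.17.1 for intervals, pandas 2.3.3, numpy 2.4.6 and, for plots, matplotlib 3.10.9.

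Members, classes and lists of related genes were chosen with earlier results of these data known. Genes named were those with at least 5 consensus peaks, a peak on a start site or a peak in 3 or 4 lists, the 2 with the most peaks of each list in each class, those without peaks, and of the related genes the 3 with the most peaks. Classes were compared by counts and shares, with no test, because the lists are pooled over samples. Alternatives were peaks of at least 1000 bp, a limit of 100 kb, start sites of all annotated genes, distance from the midpoint, 1 start site per gene, an overlap of 50%, the word TTCCCAC and the central 500 bp. Keeping only peaks that hold a GATC was added after the data were seen.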

Additional observations from a re-analysis of the deposited data

How the results depend on the processing

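Of 97 values from 15 results under the alternatives, 71 stayed within the interval of the reported share or rate, or within 1.5 times the reported count, and 26 did not. Counting only peaks within 100 kb of the start site left 80 of the 190 peaks, with 40 for classical, 19 for delta, 11 for further Cdh and 4 for further Pcdh genes. RGC RBPJ was then called at 62.5% of peaks, RGC Notch at 20% and IPC RBPJ at 36.2%, with 40.0% in clusters 2, 4, 6 and 7 and 76.2% in a single list, with 8.43 peaks per Mb and 1.24 TTCCCA words per kb. Letting start sites of all annotated genes compete left 57 peaks, with 30 for classical, 10 for delta, 2 for clustered, 11 for further Cdh and 4 for further Pcdh genes. The shares were then 63.2% for RGC RBPJ, 38.6% for IPC RBPJ, 3.51% for IPC Notch and 38.6% for clusters 2, 4, 6 and 7, with 8.46 peaks per Mb. Both alternatives remove distal peaks by construction. With peaks of at least 1000 bp the rate was 2.86 per Mb. The word TTCCCAC occurred at 0.241 per kb, and TTCCCA in the central 500 bp at 0.961 per kb. Distance from the midpoint, 1 start site per gene and the restriction to peaks with a GATC, which was chosen after seeing the data, kept every result within those bounds. An overlap of 50% changed nothing, since list peaks lie wholly within consensus peaks. A stricter score was not run because the scores are constant. No paired analysis was possible because the lists are pooled over samples and no result comes from a test.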
